A study of Mus musculus with 21 samples.

Results

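The genes of the lipopolysaccharide (LPS) receptor complex and its adaptors were followed in microglia, the resident macrophages of the brain. They are 10 genes, chosen by name out of 55487 in the count table: Tlr4, Cd14, Ly96, Myd88, Tirap, Ticam1, Ticam2, Irak2, Irak3 and Irak4. All 10 passed the filter on low counts, as 14741 genes did. The cells came from the striatum of male mice aged 8 to 10 weeks and were sorted as live CD11b+, CD45-low, P2RY12+ cells. This gate selects against cells without P2RY12 on their surface. The mice came from pregnancies exposed to maternal immune activation (MIA), in which the mother's immune system is stimulated, or from control pregnancies. They were injected intraperitoneally with LPS, a component of the outer wall of Gram-negative bacteria, at 4500 endotoxin units per g of body weight, or with saline, and the cells were taken 18 h later. The groups were MIA LPS (4 libraries), control LPS (5), MIA saline (5) and control saline (6). The submitters titled 1 more MIA saline library excluded, and it entered no main comparison. The sources used here do not give the agent used for MIA, the strain or whether animals were pooled.

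Toll-like receptor 4 recognises LPS together with MD-2, the product of Ly96, and LPS reaches this complex through CD14. At the cell surface the adaptors TIRAP and MyD88 assemble with the kinases IRAK4, IRAK1 and IRAK2 and lead to NF-kB and inflammatory cytokines. From endosomes the adaptors TRAM (Ticam2) and TRIF (Ticam1) lead to IRF3 and type I interferon genes. IRAK3, also called IRAK-M, is an inhibitor in this family, and microglia are the main brain cells that carry TLR4 and CD14.

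Total counts were 13.0 to 17.1 M (M, units of 1e+06 counts) in the MIA LPS libraries of batch 1, 9.85 to 18.1 M in control LPS, 10.2 to 15.7 M in MIA saline and 11.9 to 19.0 M in control saline. MIA LPS replicate 4 was the only library of batch 2 and stood apart, with 11.4 M counts and 12264 genes detected, against 17995 to 19559 genes in the 19 other fitted libraries. A batch term took this library up, so every comparison rests on batch 1 alone, with 3, 5, 5 and 6 libraries in these groups. Of 8 microglia markers 6 fell after LPS in each maternal group, and their summed level was 3407 to 4841 CPM in MIA LPS, 3551 to 5016 in control LPS, 10513 to 12296 in MIA saline and 9481 to 12369 in control saline. CPM are counts scaled to a library total of 1e+06, with TMM factors between libraries. P2ry12, the gene of the sorting marker, was among those that fell, at 203 ± 75.3 CPM in MIA LPS and 188 ± 17.2 in control LPS, against 2048 ± 223 in MIA saline and 1972 ± 198 in control saline (SD).

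LPS moved the members in both directions. In MIA offspring Cd14, Irak3, Tirap and Myd88 rose and Tlr4 and Ly96 fell, so that 6 of 10 members were called at an adjusted p under 0.05. In control offspring Cd14, Irak3, Tirap, Myd88 and Irak2 rose and Ly96 fell, again 6 of 10. The same rule called 39.1% of all genes tested in MIA offspring (20.8% higher, 18.3% lower) and 44.6% in control offspring (23.3% higher, 21.3% lower). The median log2 fold change of the 10 members was 0.22 in MIA offspring and 0.37 in control offspring, and that of all genes tested was 0.02 and -0.00. All p-values below come from edgeR's quasi-likelihood test with Benjamini-Hochberg adjustment over the 14741 genes, and log2 fold changes are given with their standard errors.

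Cd14, the co-receptor that hands LPS to TLR4 and MD-2 (chr18:36725067-36726798, minus strand, GRCm38), had the highest level of the 10 and a steep rise. It stood at 1434, 879.9 and 1375 CPM in MIA LPS libraries, against 150.3, 207, 129.5, 149.7 and 159 CPM in MIA saline libraries. In control offspring it stood at 1058, 887, 995, 1123 and 920.1 CPM after LPS, against 119.8 at the lowest, 161 at the median and 225 at the highest after saline. Every LPS library, the batch 2 library at 997 CPM included, lay far above every saline library, and within MIA LPS replicate 2 was the low one. The log2 fold change was 2.95 ± 0.20 in MIA offspring (7.72-fold, 95% interval 5.85 to 10.2, edgeR adjusted p = 9.18e-12). In control offspring it was 2.59 ± 0.17 (6.001-fold, 4.72 to 7.62, edgeR adjusted p = 3.40e-12).

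Markers of blood-borne myeloid cells, which also carry CD14, moved with it for the most part. Of 6 monocyte markers 5 rose and 1, Ccr2, fell in each maternal group, and their summed level was 20.3 to 26.9 CPM in MIA LPS and 16.7 to 50.5 in control LPS, against 2.54 to 5.93 in MIA saline and 3.45 to 6.29 in control saline. Ly6c2 and Chil3 had no count in any MIA saline library, and both had counts in control saline. Of 10 neutrophil markers, 7 were tested; all 7 rose in MIA offspring and 6 rose in control offspring. The neutrophil sum was 36.9 to 107.9 CPM in MIA LPS and 48.7 to 113.5 in control LPS, against 0 to 0.321 in MIA saline and 0 to 17.8 in control saline. After LPS Mpo had no count in MIA libraries, while every one of the 10 had counts in control libraries. After saline 8 of the 10 had no count in MIA libraries, S100a8 and Ngp being the exceptions, and Mpo, Elane, Retnlg and Mmp8 had none in control libraries. The part of these cells in the rise of Cd14 and Irak3 was not tested. In bulk samples a change in the number of cells of a type and a change in RNA per cell cannot be told apart.

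Tlr4, the signalling receptor (chr4:66827584-66930284, plus strand), went the other way from its co-receptor in MIA offspring. It stood at 76.4, 44.2 and 67.6 CPM in MIA LPS libraries, against 112, 90.5, 111, 108 and 106 CPM in MIA saline libraries. In control offspring the values were 89.3, 109, 86.6, 87.98 and 85.6 CPM after LPS, against 81.9 at the lowest, 104 at the median and 139 at the highest after saline. The MIA groups did not overlap, whereas all control LPS libraries lay inside the range of the control saline libraries. Tlr4 fell in MIA offspring by 0.75 ± 0.17 on the log2 scale (0.595 of the saline level, 95% interval 0.468 to 0.755, edgeR adjusted p = 7.66e-04). In control offspring it was not called, with a log2 fold change of -0.19 ± 0.14 (95% interval -0.47 to 0.09, edgeR adjusted p = 0.262). The low MIA LPS value of 44.2 CPM was replicate 2, and without that library the log2 fold change in MIA offspring was -0.55 (edgeR adjusted p = 0.00867). The difference between the maternal groups in this response was -0.56 ± 0.21 and was not called.

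Ly96, whose product MD-2 binds the lipid part of LPS (chr1:16688051-16709611, plus strand), fell in both maternal groups. Its level was 6.42, 5.85 and 6.14 CPM in MIA LPS libraries, against 19.96, 20.1, 14.97, 20.2 and 13.4 CPM in MIA saline libraries. Control LPS libraries had 8.28, 6.97, 9.54, 11.05 and 6.56 CPM, against 10.5 at the lowest, 17.3 at the median and 19.4 at the highest in control saline libraries. The MIA groups were fully separate, and in control offspring only the single low saline library, replicate 5, reached into the LPS range. The log2 fold change was -1.53 ± 0.22 in MIA offspring (0.346 of the saline level, 95% interval 0.253 to 0.474, edgeR adjusted p = 3.56e-06) and -0.95 ± 0.17 in control offspring (0.518, 0.404 to 0.663, edgeR adjusted p = 6.53e-05). These values rest on few reads, from 76 in the lowest MIA LPS library to 305 in the highest control saline library. The batch 2 library stood at 18.2 CPM, among the saline libraries, and when it was counted as a MIA LPS replicate the log2 fold change in MIA offspring was -0.97 (edgeR adjusted p = 0.00961).

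**Figure D1:**
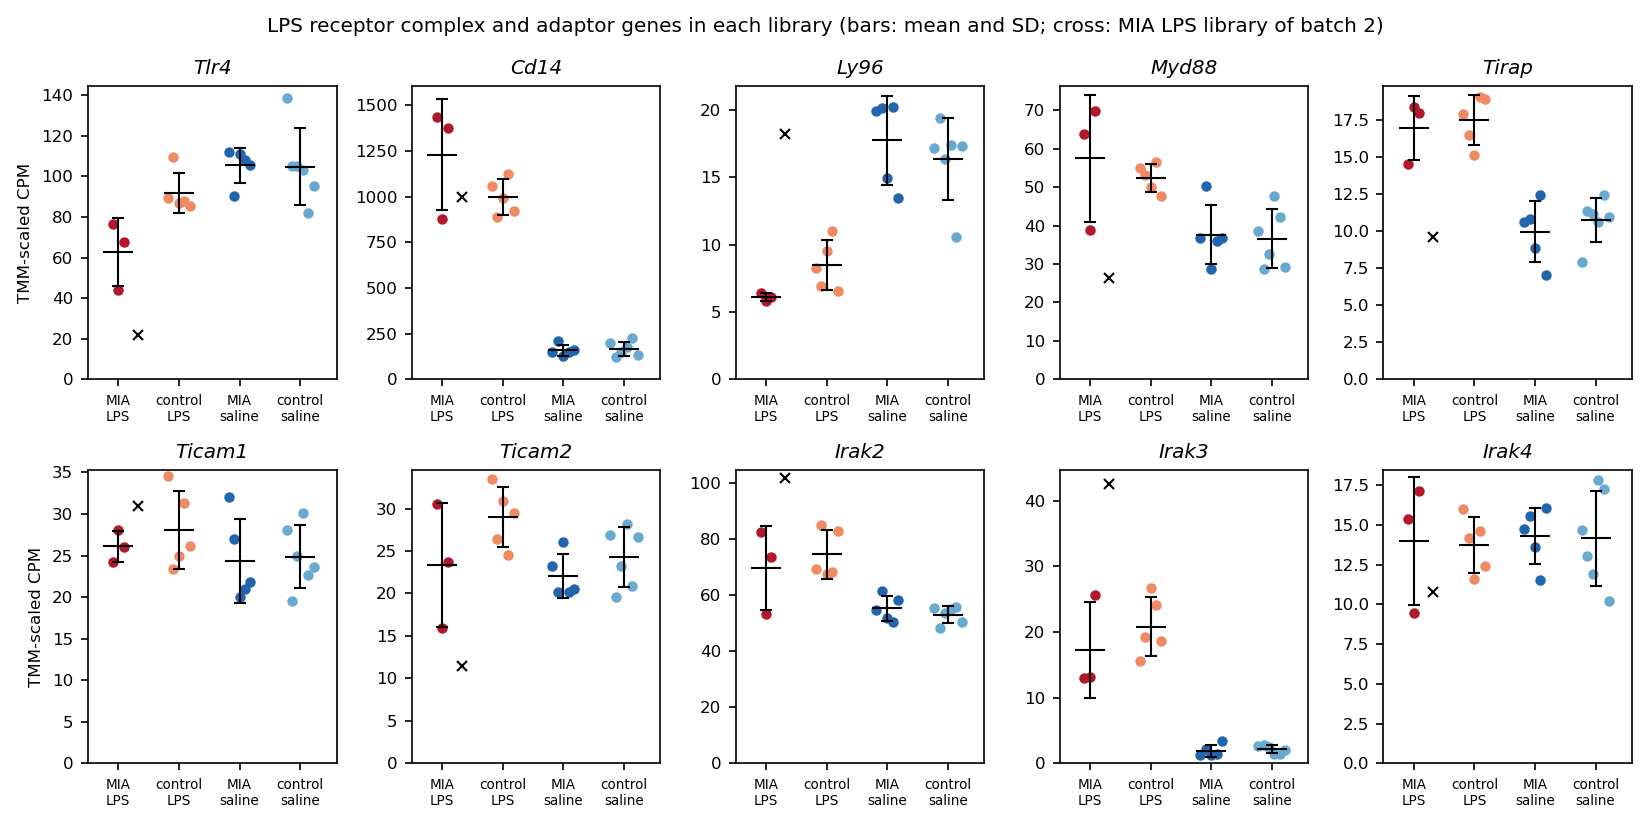
Level of each of the 10 genes in every library (y axis, TMM-scaled CPM from 0; x axis, the 4 groups); dots are batch 1 libraries, bars the mean and SD of those, and the cross is the single batch 2 library. Cd14 and Irak3 separate LPS from saline completely, Ly96 lies at 5.85 to 6.42 CPM in MIA LPS dots against 13.4 to 20.2 CPM in MIA saline dots, and the cross lies outside the range of the MIA LPS dots for every gene but Cd14 and Irak4.

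The adaptors that bridge the receptor to the IRAK kinases both rose. Tirap, the sorting adaptor that brings MyD88 to TLR4 at the membrane (chr9:35184551-35200291, minus strand), had 14.5, 18.4 and 18.01 CPM in MIA LPS libraries, against 10.6, 10.8, 8.90, 12.4 and 7.05 CPM in MIA saline libraries. In control offspring Tirap had 17.9, 16.5, 15.1, 19.1 and 18.97 CPM after LPS, against 7.95 at the lowest, 11.1 at the median and 12.5 at the highest after saline. All batch 1 LPS libraries were above all saline libraries of the same maternal group, while the batch 2 library, at 9.59 CPM, lay among the saline libraries. The change was modest, at a log2 fold change of 0.77 ± 0.18 in MIA offspring (1.71-fold, edgeR adjusted p = 0.00125) and 0.70 ± 0.15 in control offspring (1.63-fold, edgeR adjusted p = 4.19e-04).

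Myd88, the adaptor shared by most Toll-like receptors and the interleukin-1 receptor (chr9:119335934-119341411, minus strand), had 63.7, 38.8 and 69.9 CPM in MIA LPS libraries, against 36.7, 50.2, 28.8, 35.9 and 36.7 CPM in MIA saline libraries. In control offspring Myd88 stood at 54.99, 53.1, 49.9, 56.6 and 47.6 CPM after LPS, against 28.6 at the lowest, 35.6 at the median and 47.7 at the highest after saline. MIA LPS replicate 2 lay within the saline range, and in control offspring the lowest LPS library touched the highest saline library. Myd88 had a log2 fold change of 0.61 ± 0.19 in MIA offspring (1.53-fold, edgeR adjusted p = 0.0107) and 0.52 ± 0.16 in control offspring (1.44-fold, edgeR adjusted p = 0.00794). The call in MIA offspring was lost without MIA LPS replicate 1 (0.53, edgeR adjusted p = 0.0526) and without replicate 3 (0.45, edgeR adjusted p = 0.105). It was also lost when the batch 2 library, at 26.4 CPM, was counted as a replicate (0.40, edgeR adjusted p = 0.155).

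RefSeq promoter windows of GRCm38.p6, from 250 bases before to 50 after an annotated start, were found for Myd88, Tirap, Ticam1, Irak2, Irak3 and Irak4, 8 windows in all; those of Tlr4, Ly96, Cd14 and Ticam2 were not used here. They were searched on both strands for the NF-kB consensus, for an interferon-stimulated response element-like motif (GAAA, any 2 bases, GAAA) and for an AP-1-like motif TGANTCA. Of these 8 windows only that of Myd88 held a match, to the interferon-stimulated response element-like pattern, 40 to 31 bases before the start at chr9:119340049-119340058. This RefSeq start lies inside the gene span given above, whose upstream end on the minus strand is 119341411. No window at that end was searched. Among 32544 windows of the same length 8.49% held the NF-kB consensus, 3.45% the GAAA pair and 7.79% the AP-1-like pattern. The window of Myd88 is shown for that match, in capitals (chr9:119339969-119340268, minus strand), and 1 window of Irak3 because this gene had the highest fold changes of the 10 (chr10:120202081-120202380, minus strand, no match).
Myd88: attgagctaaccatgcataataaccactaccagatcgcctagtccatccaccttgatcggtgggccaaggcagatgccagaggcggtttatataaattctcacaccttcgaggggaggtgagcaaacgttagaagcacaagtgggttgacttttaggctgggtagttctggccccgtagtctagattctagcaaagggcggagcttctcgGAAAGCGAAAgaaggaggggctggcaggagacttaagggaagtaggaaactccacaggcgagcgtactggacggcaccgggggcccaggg
Irak3: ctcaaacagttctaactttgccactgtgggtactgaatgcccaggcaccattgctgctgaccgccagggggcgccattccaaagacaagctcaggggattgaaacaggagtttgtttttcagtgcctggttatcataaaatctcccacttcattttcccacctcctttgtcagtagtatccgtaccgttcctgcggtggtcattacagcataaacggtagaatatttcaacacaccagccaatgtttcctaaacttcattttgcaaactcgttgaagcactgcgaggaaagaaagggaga
A match describes letters in the window, and nothing about binding was measured.

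Neither TRIF nor its bridging adaptor was called. Ticam1, the gene of TRIF (chr17:56269319-56276786, minus strand), had 24.2, 28.03 and 26.1 CPM in MIA LPS libraries, against 32.05, 26.97, 19.96, 20.97 and 21.8 CPM in MIA saline libraries. Control offspring had 34.5, 23.4, 24.9, 31.3 and 26.2 CPM after LPS, against 19.6 at the lowest, 24.3 at the median and 30.1 at the highest after saline. Its groups overlapped throughout, and the log2 fold change was 0.10 ± 0.17 in MIA offspring (95% interval -0.25 to 0.46, edgeR adjusted p = 0.672) and 0.18 ± 0.14 in control offspring (-0.12 to 0.47, edgeR adjusted p = 0.331). Ticam2, the gene of the bridging adaptor TRAM (chr18:46557291-46574533, minus strand), had 30.5, 15.9 and 23.8 CPM in MIA LPS libraries, against 23.3, 20.2, 26.02, 20.2 and 20.6 CPM in MIA saline libraries. In control offspring Ticam2 had 33.4, 26.4, 30.9, 24.6 and 29.5 CPM after LPS, against 19.6 at the lowest, 24.97 at the median and 28.2 at the highest after saline. The MIA LPS libraries lay on both sides of the MIA saline libraries, and the control LPS libraries reached higher than control saline but overlapped it. Its log2 fold change was 0.08 ± 0.18 in MIA offspring (-0.28 to 0.45, edgeR adjusted p = 0.753) and 0.26 ± 0.15 in control offspring (-0.04 to 0.56, edgeR adjusted p = 0.161). Ticam2 shares 838 exon bases with Tmed7 on the same strand, so its level is uncertain.

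Irak4, the first kinase recruited by MyD88 (chr15:94543643-94581815, plus strand), did not pass the test in either maternal group. Its values were 15.4, 9.46 and 17.2 CPM in MIA LPS libraries, against 14.7, 15.6, 13.6, 11.6 and 16.04 CPM in MIA saline libraries. After LPS control offspring had 16.02, 14.2, 11.6, 14.6 and 12.4 CPM, against 10.2 at the lowest, 13.8 at the median and 17.8 at the highest after saline. All 4 groups lay on top of each other, and the log2 fold change was -0.03 ± 0.20 in MIA offspring (-0.45 to 0.39, edgeR adjusted p = 0.924) and -0.04 ± 0.17 in control offspring (-0.38 to 0.31, edgeR adjusted p = 0.885).

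Irak2, a kinase family member that sustains signalling downstream of IRAK4 (chr6:113638467-113695026, plus strand), rose in control offspring. MIA LPS libraries had 82.5, 53.2 and 73.6 CPM, against 54.6, 61.5, 51.98, 50.5 and 58.2 CPM in MIA saline libraries, with MIA LPS replicate 2 inside the saline range. Irak2 had 69.2, 85.2, 67.5, 68.3 and 83.00 CPM in control LPS libraries, against 48.3 at the lowest, 54.4 at the median and 55.9 at the highest in control saline libraries, and these groups were separate. The log2 fold change in control offspring was 0.49 ± 0.11 (1.41-fold, edgeR adjusted p = 7.98e-04). In MIA offspring it was 0.33 ± 0.13 (95% interval 0.06 to 0.61), which missed the threshold (edgeR adjusted p = 0.0513). It was 0.20 without MIA LPS replicate 1 (edgeR adjusted p = 0.319). Without MIA LPS replicate 2 it was 0.50 and was called (edgeR adjusted p = 0.00325), as it was without MIA saline replicate 2 (0.37, edgeR adjusted p = 0.0407) and without control LPS replicate 2, which is outside that contrast but inside the fit (0.34, edgeR adjusted p = 0.0454). The difference between the maternal groups was itself -0.16 ± 0.18 (-0.52 to 0.21).

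Irak3, the inhibitor of the family (chr10:120141648-120202130, minus strand), had the highest fold change of the 10 in both maternal groups, with intervals that overlap those of Cd14 in each. Without MIA LPS replicate 3 its log2 fold change in MIA offspring was 2.76, below that of Cd14 (2.86). It was scarce after saline, with 15 to 50 reads per library in MIA offspring and 19 to 47 in control offspring. MIA LPS libraries had 13.01, 13.1 and 25.7 CPM, against 1.31, 2.17, 1.28, 1.44 and 3.33 CPM in MIA saline libraries. Control LPS libraries had 15.5, 19.2, 26.7, 24.2 and 18.6 CPM, against 1.46 at the lowest, 2.22 at the median and 2.80 at the highest in control saline libraries. LPS and saline libraries were far apart, although the LPS libraries varied widely among themselves, most of all in MIA offspring. Irak3 had a log2 fold change of 3.17 ± 0.29 in MIA offspring (8.99-fold, 95% interval 5.91 to 13.7, edgeR adjusted p = 3.65e-09) and 3.27 ± 0.25 in control offspring (9.67-fold, 6.75 to 13.8, edgeR adjusted p = 7.47e-11). The batch 2 library stood higher still, at 42.6 CPM, and it also had the highest sums of monocyte markers (97.5 CPM) and neutrophil markers (374 CPM). Within batch 1 the order differed. MIA LPS replicate 3, the highest of that group in Irak3, had its lowest sums of monocyte markers (20.3 CPM) and neutrophil markers (36.9 CPM). Replicate 1, the lowest in Irak3, had the highest batch 1 neutrophil sum of that group (107.9 CPM). The monocyte and neutrophil sums given beside Cd14 apply here as well. Exons of Irak3, Irak4, Myd88, Tirap and Irak2 overlap exons on the opposite strand (192 bases with Tmbim4, 395 with Twf1, 290 with Acaa1a, 446 with Gm39318 and 196 with Gm43963). Tirap also shares 39 opposite-strand exon bases with Srpr. Summed over all libraries Srpr had 11648 counts, against 3730 for Tirap and 66.3 for Gm39318. The sources used here do not give whether reads were counted by strand.

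**Figure D2:**
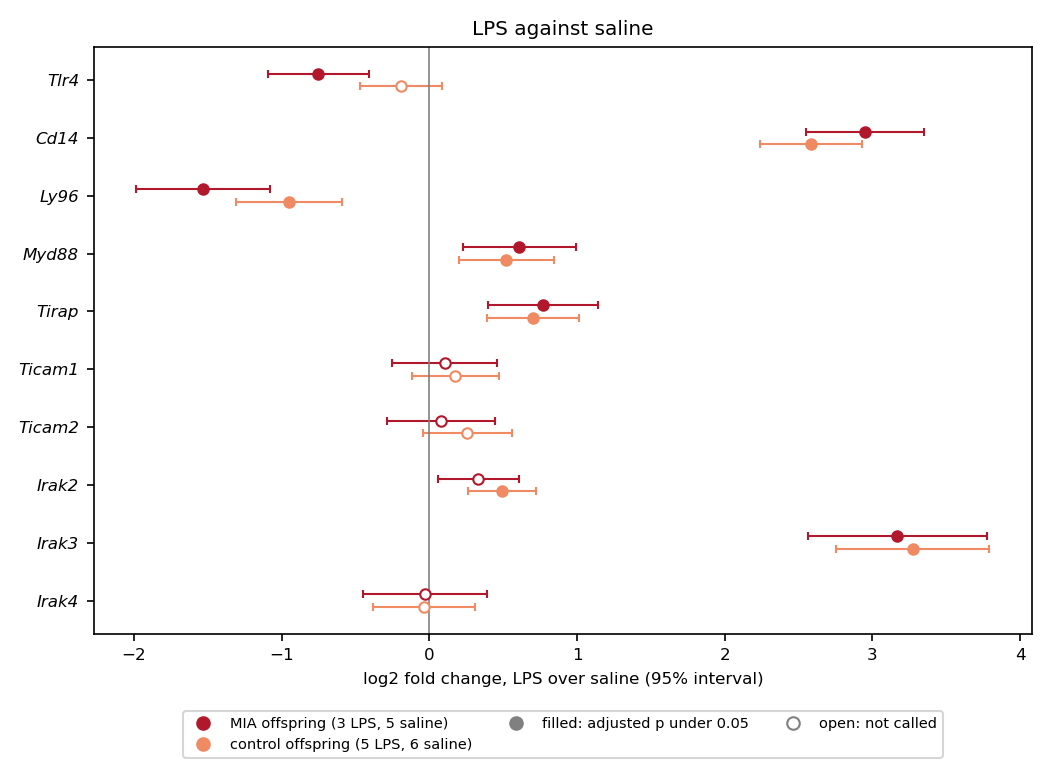
Log2 fold change of LPS over saline for each gene (x axis) with 95% intervals, in MIA offspring above and control offspring below; filled points have an edgeR adjusted p under 0.05. Irak3 and Cd14 lie between 2.59 and 3.27, Ly96 lies at -1.53 and -0.95, and Tlr4 is filled in MIA offspring alone.

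In MIA offspring LPS and saline libraries of batch 1 were fully separate for 5 of 10 members (Cd14, Irak3, Tirap, Tlr4 and Ly96), where 36.5% of all genes tested were. In control offspring this held for 4 of 10 (Cd14, Irak3, Tirap and Irak2), where 28.9% of all genes were.

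Levels of different genes were set beside each other per length of exon, which takes reads to be spread along the whole transcript. The libraries were primed at the poly(A) tail, and the spread of reads along transcripts was not checked. On the scale of CPM per kilobase of merged exon, Cd14 stood first in every group, at 710.1 in MIA LPS, 575 in control LPS, 91.9 in MIA saline and 95.9 in control saline, and its libraries never overlapped those of the next gene. After saline Tlr4 came second, at 18.97 in MIA and 18.9 in control offspring, followed by Ly96 (17.4 and 16.04), Myd88 (14.6 and 14.2) and Irak2 (12.5 and 12.04). Each of these 4 overlapped the next, while Tlr4 was clear of Irak2 and Irak2 was clear of Ticam1 below it. After LPS Myd88 took the second place, at 22.3 in MIA and 20.4 in control offspring, Tlr4 was the fourth (11.3 and 16.5) and Ly96 the sixth (6.01 and 8.31). Libraries of Myd88, Irak2 and Tlr4 overlapped from each to the next after LPS. Irak3, last of the 10 after saline at 0.519 and 0.581, was the seventh after LPS at 4.70 and 5.66. At the low end after LPS stood Ticam2, Tirap and Irak4, of which Irak4 had 2.79 in MIA and 2.74 in control offspring. With the length of the longest transcript instead, Cd14 kept its place, but Myd88 stood below both Irak2 and Tlr4 in control LPS. Ly96 then stood above Tlr4 in MIA saline, and Irak2 above Myd88 in both saline groups. After LPS Ly96 then stood above Ticam1, and Irak4 above Tirap, in both maternal groups, and Irak3 stood below Ticam2 in control LPS. These places between neighbours thus depend on the length used. Without any length, Ly96 after saline had 17.7 CPM in MIA and 16.4 CPM in control offspring. This was below Irak2 (55.4 and 53.1), Myd88 (37.7 and 36.5), Ticam1 (24.3 and 24.8) and Ticam2 (22.1 and 24.3).

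**Figure D3:**
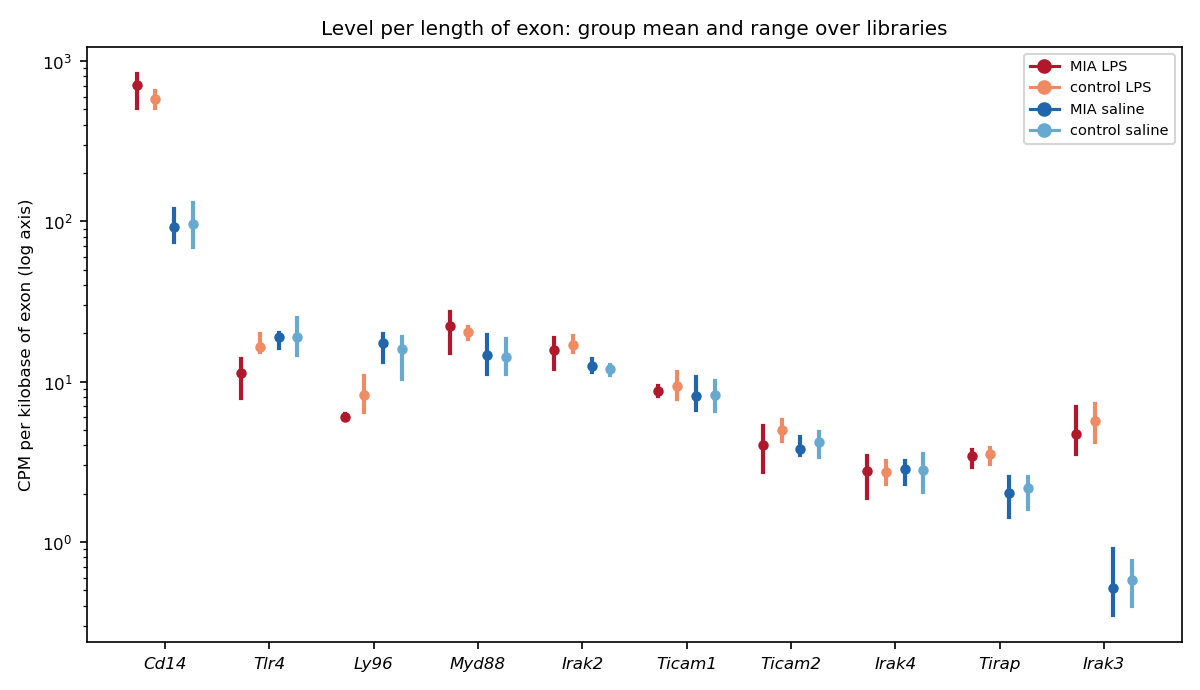
Level per length of exon (y axis, CPM per kilobase, log axis) of the 10 genes in order of their control saline level, as the mean (dot) and range (line) of the batch 1 libraries of each group. Cd14 stands above all others in every group, and Irak3 is lowest after saline (0.519 and 0.581) but not after LPS.

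Ratios within a library are free of the scaling between libraries. The ratio of Cd14 to Tlr4 per length was 60.3 to 65.3 in MIA LPS and 25.99 to 40.9 in control LPS, against 3.74 to 7.35 in MIA saline and 3.66 to 8.81 in control saline. The 3 MIA LPS libraries were nearly alike in this ratio and lay above all 5 control LPS libraries, although their Cd14 levels differed by more than the ratio did; MIA LPS replicate 2, low in both genes, had a ratio like the others. On the log2 scale the means were 5.98 ± 0.06 in MIA LPS and 5.12 ± 0.25 in control LPS, against 2.26 ± 0.37 in MIA saline and 2.33 ± 0.44 in control saline (SD), and LPS minus saline was 3.72 in MIA and 2.80 in control offspring. The batch 2 library had a ratio of 146.5, and counting it as a MIA LPS replicate gave 4.02 in place of 3.72. This comparison of ratios is a description without a test.

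The ratio of Ly96 to Tlr4 had log2 means of -0.87 ± 0.35 in MIA LPS and -1.01 ± 0.39 in control LPS, against -0.14 ± 0.34 in MIA saline and -0.24 ± 0.25 in control saline (SD), and LPS and saline libraries overlapped in both maternal groups. The MIA difference rests on batch 1, since the batch 2 library had a log2 ratio of 2.18, and with it LPS minus saline in MIA offspring was 0.035 in place of -0.73. For the inhibitor against the kinase, Irak3 to Irak4, the log2 means were 0.72 ± 0.45 in MIA LPS and 1.03 ± 0.45 in control LPS, against -2.55 ± 0.49 in MIA saline and -2.30 ± 0.65 in control saline. With merged exon lengths Irak3 thus stood above Irak4 in every LPS library and below it in every saline library. In CPM without length Irak3 was below Irak4 in MIA LPS replicate 1 (13.01 against 15.4). The same held in control LPS replicate 1 (15.5 against 16.02), so the order in these libraries depends on the length used. Ticam1 to Myd88, the TRIF against the MyD88 adaptor, had log2 means of -1.31 ± 0.54 in MIA LPS and -1.13 ± 0.19 in control LPS, against -0.85 ± 0.28 in MIA saline and -0.76 ± 0.21 in control saline, with overlapping libraries. The same held for Ticam2 to Tirap, at 0.19 ± 0.64 and 0.49 ± 0.26 after LPS, against 0.93 ± 0.38 and 0.94 ± 0.39 after saline in MIA and control offspring. Irak2 to Irak4 had log2 means of 2.53 ± 0.21 and 2.63 ± 0.26 after LPS, against 2.15 ± 0.11 and 2.12 ± 0.26 after saline.

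**Figure D4:**
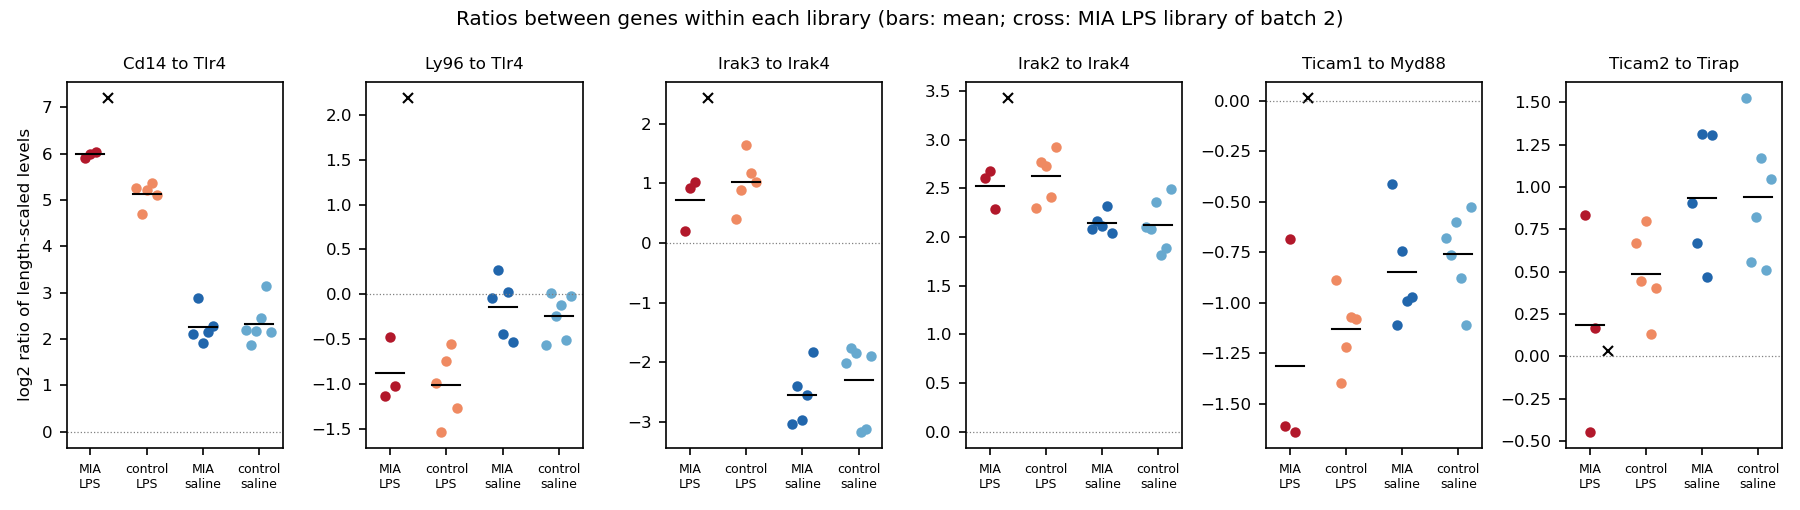
Log2 ratio of the length-scaled levels of 6 pairs of genes in every library (y axis, each panel on its own scale; dotted line, equal levels), with the mean of batch 1 libraries as a bar and the batch 2 library as a cross. Cd14 to Tlr4 averages 5.98 in MIA LPS and 5.12 in control LPS. With the merged exon lengths used here, Irak3 to Irak4 is above the dotted line in LPS libraries and below it in saline libraries.

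MIA and control offspring were compared within each treatment and for their response to LPS. No member passed the test in any of these 3 comparisons, and neither did any other gene (0% called of the 14741). At an unadjusted p under 0.05 edgeR gave 415 genes after saline (2.82%), 825 after LPS (5.60%) and 491 for the difference of the responses (3.33%), among them 0, 2 and 2 members. DESeq2 called 6 genes after saline and 0 in the other 2 comparisons, limma-voom with sample weights called 0 in all 3, and limma-voom with the ID number as a random block called 1, for the difference of the responses. None of those called was a member.

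After saline no member was called between MIA and control offspring. Their log2 fold changes lay between -0.16 for Irak3 (95% interval -0.74 to 0.42) and 0.12 for Ly96 (-0.23 to 0.46), all with an edgeR adjusted p of 1. Without 1 library Irak3 ranged from -0.47 (MIA saline replicate 5 left out) to -0.04 (MIA saline replicate 3), and Ly96 from 0.01 (control saline replicate 5) to 0.20 (MIA saline replicate 5). For Cd14 the interval was -0.40 to 0.27 and for Tlr4 -0.27 to 0.29. The libraries of the maternal groups overlapped for all 10, where 0.407% of all genes did not overlap.

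After LPS Tlr4 and Ly96 were the members whose libraries did not overlap between MIA and control offspring, 2 of 10, where 2.67% of all genes tested did not. Tlr4 was 44.2 to 76.4 CPM in MIA LPS and 85.6 to 109 in control LPS, with means of 62.7 ± 16.6 CPM in MIA LPS (SD, n = 3) and 91.8 ± 9.97 CPM in control LPS (SD, n = 5). The log2 fold change was -0.55 ± 0.17 (95% interval -0.89 to -0.21), and it was not called (edgeR adjusted p = 0.647). All 3 MIA LPS libraries, and the batch 2 library at 21.8 CPM, lay below every control LPS library. Without MIA LPS replicate 2 the log2 fold change was -0.35. Replicate 2 had the highest sums of astrocyte markers (217.9 CPM) and oligodendrocyte markers (82.2 CPM) among MIA LPS libraries. Its sum of microglia markers (3407 CPM) was the lowest of these libraries. The batch 2 library, lower still in Tlr4, had an astrocyte sum of 77.1 CPM and an oligodendrocyte sum of 69.1 CPM. Astrocyte sums of saline libraries reached 252 CPM in MIA and 264 CPM in control offspring. The part of cell mixture in the Tlr4 levels was not tested.

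Ly96 was 5.85 to 6.42 CPM in MIA LPS and 6.56 to 11.05 in control LPS. Its log2 fold change was -0.47 ± 0.22 (-0.91 to -0.02), not called either (edgeR adjusted p = 0.881). The gap between the groups was small, and the batch 2 library lay above all control LPS libraries. Counting that library as a replicate gave a log2 fold change of 0.09, of the other sign. Cd14 averaged 1229.9 ± 305 CPM in MIA LPS (SD, n = 3) and 997 ± 97.1 CPM in control LPS (SD, n = 5), with a log2 fold change of 0.30 ± 0.19 (-0.10 to 0.70, edgeR adjusted p = 0.928). It was 0.18 without MIA LPS replicate 1 and 0.50 without replicate 2. For the other 7 members the log2 fold changes lay between -0.31 for Ticam2 (-0.68 to 0.06) and 0.13 for Myd88 (-0.25 to 0.52), with overlapping libraries. Ticam2 had -0.55 without MIA LPS replicate 1 and -0.10 without replicate 2, and Irak3 had -0.67 without replicate 3 and -0.10 without replicate 2.

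The difference of the LPS responses, MIA minus control, was -0.56 ± 0.21 for Tlr4 (95% interval -0.996 to -0.12, edgeR adjusted p = 1.00) and -0.58 ± 0.27 for Ly96 (-1.14 to -0.02, edgeR adjusted p = 1.00). Tlr4's call in MIA offspring but not in control offspring is thus not shown to be a difference between them. Without MIA LPS replicate 2 the value for Tlr4 was -0.36, and with the batch 2 library as a replicate that for Ly96 was -0.02. Cd14 had 0.36 ± 0.25 (-0.16 to 0.89), and without MIA LPS replicate 1 or 2 it had 0.24 and 0.56. For the other 7 members the difference lay between -0.17 for Ticam2 and 0.09 for Myd88.

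**Figure D5:**
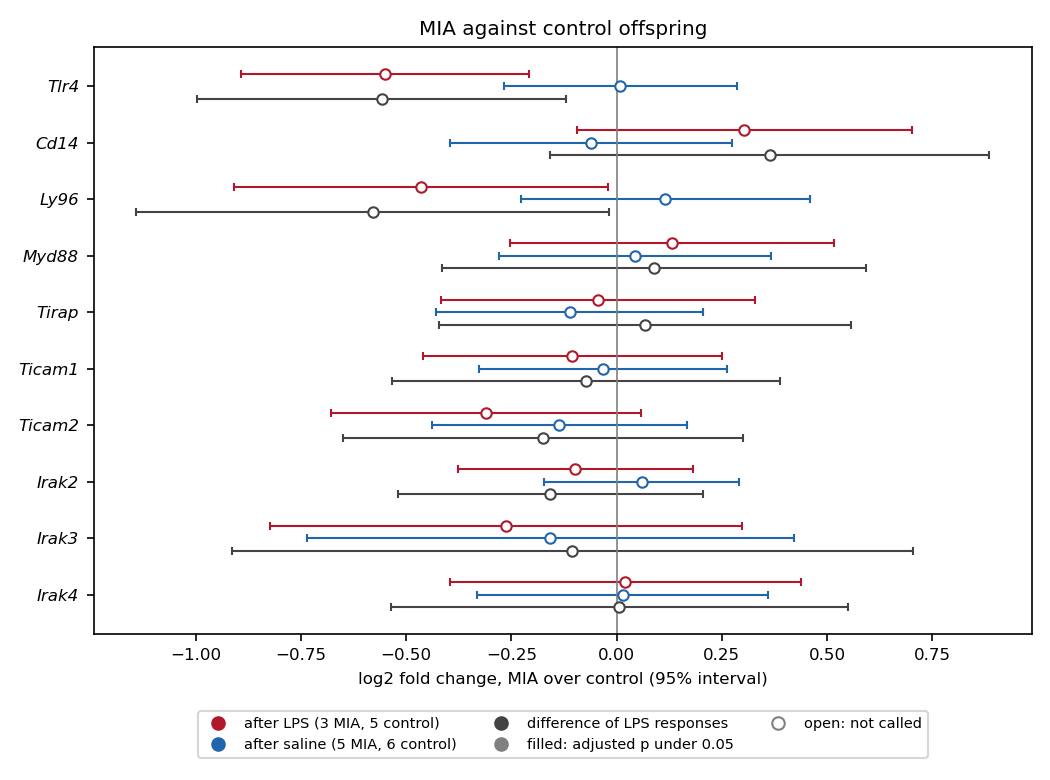
Log2 fold change of MIA over control offspring (x axis, 95% intervals) after LPS and after saline, and the difference of the LPS responses; all points are open, since none had an edgeR adjusted p under 0.05. After LPS the intervals of Tlr4 (-0.89 to -0.21) and Ly96 (-0.91 to -0.02) lie below 0, and after saline all 10 intervals include it.

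Other genes of the pathway, in lists by role, were set beside the members. Of 6 tested genes for LPS delivery and co-receptors (Lbp was not tested) 2 rose and 2 fell in each maternal group. Aoah, which deacylates and inactivates LPS, rose by 6.61 ± 0.64 in MIA and 6.05 ± 0.52 in control offspring on the log2 scale. Cd180, a Toll-like relative that works with the MD-2-like protein MD-1, had 29.7 ± 16.5 CPM in MIA LPS and 24.5 ± 6.64 in control LPS, against 125 ± 4.09 in MIA saline and 115 ± 21.98 in control saline (SD). Its log2 fold change was -2.07 ± 0.27 in MIA and -2.23 ± 0.22 in control offspring, and that of Ly86, which encodes MD-1, was -0.93 ± 0.15 and -1.08 ± 0.13. The receptor and MD pair Cd180 and Ly86 thus fell with Ly96. Among 5 genes for folding and trafficking of TLR4 only the recycling GTPase Rab11a was called, at -0.89 ± 0.17 in MIA and -0.63 ± 0.14 in control offspring. Under 5 of 9 alternative settings, and without control LPS replicate 1 or 3, MIA LPS replicate 2 or control saline replicate 5, 2 of these genes were called in control offspring, and without a batch term 2 were called in MIA offspring.

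Of 14 partners of the MyD88 arm 4 rose and 0 fell in MIA offspring, and 4 rose and 2 fell in control offspring, where 39.1% and 44.6% of all genes were called in either direction. Irak1, the kinase activated by IRAK4, had log2 fold changes of 0.64 ± 0.16 in MIA and 0.53 ± 0.14 in control offspring, and its call in MIA offspring was lost without MIA LPS replicate 2 (0.39) and without a batch term (0.42). Peli1, an E3 ubiquitin ligase of the IRAK complex, had 0.76 ± 0.13 and 0.78 ± 0.11, and Pik3ap1, the PI3K adaptor BCAP, had 0.87 ± 0.13 and 0.87 ± 0.11. Of 6 partners of the TRIF arm 2 rose in MIA offspring and 3 in control offspring, and none fell. Tank, a scaffold of the TBK1 complex, had 1.41 ± 0.14 and 1.42 ± 0.12, and the kinase Tbk1 had 0.60 ± 0.14 and 0.46 ± 0.12, not called in MIA offspring without a batch term (0.37). Ikbke, its relative, had 0.72 ± 0.34 in MIA offspring (edgeR adjusted p = 0.0981) and 0.76 ± 0.28 in control offspring (edgeR adjusted p = 0.0332). The call of Ikbke in control offspring was lost in 4 of 9 alternative settings and in 7 of 19 fits without 1 library (highest edgeR adjusted p 0.115, without control LPS replicate 3), and a call in MIA offspring was gained in 2 of these settings and without MIA saline replicate 5.

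Of 9 tested inhibitors (Sigirr was not tested) 3 rose and 3 fell in each maternal group. Tnfaip3, the ubiquitin-editing enzyme A20, had 896 ± 74.6 CPM in MIA LPS and 699 ± 134 in control LPS, against 327 ± 63.2 in MIA saline and 267 ± 49.5 in control saline (SD), with log2 fold changes of 1.45 ± 0.18 and 1.39 ± 0.15. Sarm1, a TIR-domain protein that restrains TRIF in human cells, fell at low levels, by 1.52 ± 0.46 in MIA and 1.75 ± 0.39 in control offspring. Tnip3, a partner of A20, had 0.760 to 1.25 CPM in MIA LPS and 0.240 to 2.39 in control LPS, against 0 to 0.599 in MIA saline and 0 to 0.153 in control saline, close to the limit of counting. It was called in control offspring (edgeR adjusted p = 1.12e-04) and not in MIA offspring (edgeR adjusted p = 0.0528), where it was called under 3 of 9 alternative settings and without MIA saline replicate 5 or control LPS replicate 5. All 6 early targets of the MyD88 arm rose in both maternal groups, among them Cxcl2 at 5.44 ± 0.41 and 5.42 ± 0.36, Il1b at 4.21 ± 0.52 and 3.85 ± 0.45, and Cxcl1, at 3.29 to 4.35 CPM in MIA LPS and 1.60 to 5.62 in control LPS, against 0 to 0.0674 in MIA saline and 0 to 0.116 in control saline. All 4 tested targets of the TRIF arm (Ifnb1 was not tested) rose as well, led by Ccl5, at 87.5 to 165 CPM in MIA LPS and 81.8 to 264 in control LPS, against 0.200 to 1.77 in MIA saline and 0.395 to 2.21 in control saline. Ifit1 had log2 fold changes of 3.99 ± 0.54 and 4.12 ± 0.48, and Cxcl10 had 3.79 ± 0.31 and 3.77 ± 0.27. No gene of these lists was called between MIA and control offspring.

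The members were also compared with all other genes tested over the 19 batch 1 libraries, as a description. Cd14 was most like Tnf in log2 CPM (Pearson r = 0.992), with Fth1, App and Osm (r = 0.989) among the next, and these share the difference between LPS and saline libraries. Tlr4 was most like Sass6 (r = 0.900), Emsy, Rfx3, Senp7 and Mbd5 (r = 0.879). In deviations from the group means, which take out that difference, Cd14 was most like Rplp0 (r = 0.930), with Rpl8, Arpc1b and Eef1a1 (r = 0.910) among the next, and Tlr4 most like Itgb7 (r = 0.867), Mcu, Dhcr7, Ift88 and Iqgap1 (r = 0.834). Among the members themselves, deviations went together most for Cd14 and Myd88 (r = 0.891), Myd88 and Irak4 (r = 0.820) and Cd14 and Irak4 (r = 0.737), and most in opposite directions for Tlr4 and Tirap (r = -0.525). MIA LPS replicate 2 was the lowest of the 3 MIA LPS libraries of batch 1 for Tlr4, Cd14, Ly96, Myd88, Ticam2, Irak2 and Irak4, and these points share library and depth.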

How the data were processed

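RNA of sorted striatal microglia was sequenced in bulk from 21 libraries. The authors deposited estimated counts per gene, not normalized; RSEM, STAR and DESeq2 are named, without versions or roles, per the submitters' processing notes. The sources used here give neither the genome build and annotation nor the use of strand. Libraries were primed at the poly(A) tail and amplified by PCR, per the labels' protocols, and no molecular identifiers are stated, so counting error is a lower limit.

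All 10 versioned gene IDs were found in GENCODE M21 (GRCm38), which gave symbols, coordinates and exon lengths; 55141 of 55487 IDs had a symbol. Of the values, 73018 were not whole, and all were rounded. An ID that names ribosomal RNA, CT010467.1, took 43.0% to 53.8% of the counts of the fitted batch 1 libraries. Replicate libraries all differed by more than sampling noise (lowest chi-square per degree of freedom 7.64).

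Fold changes were tested by quasi-likelihood in edgeR 4.0.16 (R 4.3.3, robust fit, TMM scaling) on all 20 libraries not titled excluded, with a mean per group plus batch and 15 residual degrees of freedom. filterByExpr (minimum count 10, minimum total 15) kept 14741 genes and 99.9% of counts. Called means an adjusted p under 0.05 over those genes. Alternatives used limma 3.58.1, DESeq2 1.42.0 and other settings, and the code was tested on simulated data. Every member was named. From each list of other pathway genes the 3 called genes with the highest absolute change in control offspring were named. A few genes from the marker and likeness results are not reported here. The members and lists were chosen with earlier results of these data known. Labels do not state that libraries came from separate litters, so the p-values cover only the variation among these libraries, which may in part be technical.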

Additional observations from a re-analysis of the deposited data

Results flagged for a closer look

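In 40 groups of 4 to 6 libraries, 10 genes in 4 groups with the batch 2 library included, each group was checked for a library far from the others relative to the range of its group. Chance alone marks about 1 in 20 such groups, and 3 were marked. That rate takes the libraries of a group to be alike, which does not hold for MIA LPS with its batch 2 library. Tlr4 in control LPS replicate 2, at 109.4 CPM, stood above the other 4 control LPS libraries, the next being 89.3 and the lowest 85.6 CPM. Ly96 in MIA LPS replicate 4, the batch 2 library, stood at 18.2 CPM, against 6.42 CPM in the next and 5.85 CPM in the lowest MIA LPS library. Ly96 in control saline replicate 5 was low, at 10.5 CPM, against 16.4 CPM in the next and 19.4 CPM in the highest control saline library.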

How the results depend on the processing

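Fold changes and counts of calls were recomputed under 9 alternative settings and with each of the 19 batch 1 libraries left out. Ratios were recomputed without each library of their groups and, in MIA offspring, with the batch 2 and excluded libraries, and the order of levels with another length. The number of members called stayed at 6 in control offspring, was 5 to 7 in MIA offspring and was 0 in the comparisons of MIA with control offspring. Of 1400 recomputed fold changes of members 1317 kept direction and call, 3 lost the call, 6 gained it and 74 changed sign, all of the last in values that were not called; the cause was not tested. The calls lost and gained are those of Myd88 and Irak2 in MIA offspring. Beside those given with the results, Irak2 was called with limma-voom with sample weights (0.45), without a batch term (0.49) and when the library titled excluded was added (0.33).

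Sign changes follow as log2 fold changes. With sample weights, Irak4 after LPS had 0.14 in MIA and 0.046 in control offspring, the difference of the responses was 0.023 for Ticam2 and 0.019 for Irak3, and MIA against control was 0.018 for Cd14 after saline and 0.016 for Irak2 after LPS. Without a batch term, LPS in MIA offspring gave -0.11 for Ticam2. The difference of the responses was then -0.12 for Myd88, -0.095 for Tirap, 0.34 for Irak3 and -0.075 for Irak4. MIA against control after LPS was then 0.091 for Ly96, -0.075 for Myd88, 0.059 for Irak2, 0.18 for Irak3 and -0.060 for Irak4, and the ratio of Ly96 to Tlr4 was 0.035. With upper quartile scaling Ticam2 had -0.020 after LPS in MIA offspring and Irak4 -0.010 for the difference. With the ID number as a random block Irak4 had -0.057 for the difference and -0.030 after LPS. With the library titled excluded, MIA against control after saline was -0.033 for Tlr4 and 0.041 for Ticam1.

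With a replicate block the members called stayed at 6 in each maternal group and 0 elsewhere, and MIA against control after saline turned to -0.0033 for Tlr4 and -0.053 for Irak4. Deviations of 24 pairs of libraries with the same replicate number correlated at -0.136 to 0.222, with 5 over 0.1. These correlations were low, but no pairs with unlike replicate numbers were set beside them. They cannot decide whether the replicate numbers weakly pair the libraries. The ID number in the labels is another number, and its meaning is not stated. Each fitted MIA saline library shared its ID number with a MIA LPS library, and most control saline libraries with a control LPS library. Some saline libraries also shared it with each other. The main fit treated all as separate replicates. With the ID number as a random block, 6 members were again called in each maternal group and 0 elsewhere.

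Leaving out single libraries turned signs within these ranges. After LPS, Irak4 had -0.20 to 0.19 in MIA and -0.11 to 0.037 in control offspring, and Ticam2 had -0.15 to 0.30 in MIA offspring. The difference of the responses was -0.077 to 0.31 for Myd88, -0.036 to 0.17 for Tirap, -0.14 to 0.048 for Ticam1, -0.41 to 0.041 for Ticam2, -0.29 to 0.0057 for Irak2, -0.51 to 0.20 for Irak3 and -0.17 to 0.22 for Irak4. MIA against control after saline was -0.054 to 0.10 for Tlr4, -0.17 to 0.046 for Cd14, -0.081 to 0.13 for Myd88, -0.15 to 0.032 for Ticam1 and -0.063 to 0.089 for Irak4. After LPS it was -0.034 to 0.35 for Myd88, -0.11 to 0.054 for Tirap, -0.24 to 0.065 for Irak2 and -0.16 to 0.24 for Irak4. Members with few reads, Irak3 after saline and Ly96 after LPS, are the ones most limited by depth.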

Other observations

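Values of the library that the submitters titled excluded, MIA saline replicate 6, entered only the recomputations that added it. It held 5.29 M counts, with Tlr4 at 87.2, Cd14 at 140.8, Ly96 at 12.6, Myd88 at 34.7, Tirap at 6.71, Ticam1 at 32.8, Ticam2 at 27.0, Irak2 at 48.9, Irak3 at 1.92 and Irak4 at 13.4 CPM. Its Cd14 and Irak3 levels lay among the MIA saline libraries, Tlr4, Ly96, Tirap and Irak2 lay below all 5 of them, and Ticam1 and Ticam2 lay above.

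The batch 2 library, MIA LPS replicate 4, had Cd14 at 997, Tirap at 9.59, Ticam1 at 30.9, Ticam2 at 11.5, Irak2 at 102 and Irak4 at 10.8 CPM. Of these Cd14 lay within the other LPS libraries and Irak2 above all of them, while Tirap lay within the saline libraries.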
